A study of Mus musculus with 13 samples.

Results

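The 32 genes described here encode proteins that leukocytes use to signal from surface receptors and to rebuild their actin skeleton. Their poly-A transcripts were counted in connective tissue cells grown from mouse embryos (mouse embryonic fibroblasts, MEFs), both as primary cultures and as lines that had become immortal on their own. The members were taken from a list of symbols, and all 32 were found in both count tables, among 55487 genes counted in each. By role they were 4 kinases, 7 adaptors, 5 phosphoinositide enzymes and phosphatases, 3 subunits of the NADPH oxidase, 5 regulators or members of the Rac pathway, 5 actin and motor proteins, and 3 adhesion linkers and beta-arrestin.

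The series held 13 libraries in 4 groups: 3 primary WT clones (3, 4 and 5), the 3 immortalized WT lines that grew out of them, 3 primary Prkd3-/- clones (13, 14 and 15), and 4 immortalized Prkd3-/- lines (13, 13a, 14 and 15). The label of line 13a names clone 13a. It was taken here as a second line of clone 13, which the labels do not state. Cells of every group were grown in medium with 10% serum. Serial passage took primary cells to senescence, the medium was then changed to 20% serum, and colonies that resumed growth gave the lines, so serum history and passage number cannot be told apart from immortalization. With 13a read as clone 13, each clone gave 1 library per state except clone 13. Lines 13 and 13a entered the tests as separate replicates. The p-values thus measure the spread between clones and, in the Prkd3-/- lines, also between lines taken to be of 1 clone. With the counts of lines 13 and 13a summed, the median Log2FC of the members in Prkd3-/- cells was -3.43, and 0 members were called.

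Receptors of leukocytes that carry or recruit tyrosine motifs are phosphorylated by Src family kinases, which lets Syk and Btk dock and act. Adaptors then gather phospholipase C and phosphoinositide 3-kinase at the membrane, phosphatases limit the response, and Rac with its exchange factors passes the signal to actin and, in phagocytes, to the oxidase that makes superoxide. Many of these proteins have paralogs that serve the same step in most other cell types, for example Rac1 beside Rac2. Fibroblasts are known for the widely expressed paralogs rather than for the leukocyte forms.

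Libraries held 35273408 to 100441756 assigned counts. All 9 fibroblast markers were counted in every library and summed to 18557 to 67896 CPM (counts scaled to a common library size), led by Col1a1 at 7789 to 39237 CPM. Others of these markers were low in some libraries, and the median of the 9 stood at 26.4% of the WT primary mean in WT line 3 and at 12.5% in line 13. In Prkd3-/- primaries 13, 14 and 15 the median stood at 67.0, 47.4 and 38.5%, and Dcn at 7.77, 24.0 and 3.17%. Lum, the proteoglycan lumican, was counted 3 times in WT line 3, and Dcn, decorin, 41, 20 and 52 times in lines 3, 13 and 15. Prkd3 itself was counted at 69.2 to 93.8 CPM in the 6 WT libraries and at 33.6 to 61.0 CPM in the 7 Prkd3-/- libraries, so the groups did not overlap, although transcript was still counted in the knockout. The 3 WT primaries were much closer to each other (chi-square per gene of 5.88 to 14.6) than the WT lines were (496 to 783) or the Prkd3-/- lines (399.6 to 949). Primary clone 14 stood apart from the other Prkd3-/- primaries (chi-square per gene of 458 and 262, against 56.5 between clones 13 and 15), and line 13a stood apart from the other Prkd3-/- lines in the member genes. For the Prkd3-/- cells, the median of the members, the count of calls and each Log2FC printed for a member are therefore also given without line 13a and without primary 14.

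All 32 members were lower on average after immortalization in WT cells, with a median Log2FC of -4.17, where the median over all 19836 genes tested was 0.04. In edgeR's quasi-likelihood test, 18 of the 32 members were downregulated at an adjusted p under 0.01 and a |Log2FC| of at least 1, beside 1.76% of all genes tested, and none was upregulated (0.0605% of all genes). In 31 of the 32 members every immortalized WT library lay below every primary WT library, which held for 17.3% of all genes. Syk was the exception. The 18 were Btk, Lat2, Fyb, Sash3, Plek, Pik3cd, Inpp5d, Ptpn6, Cybb, Arhgap30, Was, Nckap1l, Coro1a, Lcp1, Myo1f, Fermt3, Lpxn and Arrb2. Their Log2FC ran from -5.54 for Was to -1.32 for Fyb. At an adjusted p under 0.05 there were 25 members (4.16% of all genes). DESeq2 called 29 members lower, beside 5.09% of the genes it tested, and limma-voom called 23, beside 0.923%. With the clone as a replicate block, 0 of 32 members passed the same threshold, beside 0% of all genes, and their median Log2FC was -4.38. Leaving out WT primary 3, 4 or 5 left 5 calls each, leaving out WT immortalized 4 left 11, and leaving out WT immortalized 5 gave 28. All 6 such runs lay within 5 to 28 calls, and the share of all genes called in each is not given here. All of the members had been picked with results of these libraries known, so their shared direction is a description and not independent evidence.

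In Prkd3-/- cells 0 of the 31 members tested passed the same threshold in edgeR's test, beside 0% of the 20298 genes tested. At an unadjusted p under 0.05 there were 10 members, beside 6.56% of all genes, and 0 members were called lower by DESeq2 (0.67% of all genes) and by limma-voom (0% of all genes). The fitted change was still negative in 29 of the 31, with a median Log2FC of -3.24 against 0.07 over all genes. Plcg2 and Syk had positive fits. In 9 of the 32 members, Fgr among them, every immortalized library lay below every primary library, which held for 5.26% of all genes tested. The 9 include Fermt3, for which line 13a and primary 13 were nearly tied at 4.125 and 4.127 CPM. Both states were mixed, with clone 14 high among the primaries and line 13a high among the lines. Without line 13a the median Log2FC was -6.05 and 0 members were called. Without primary 14 it was -1.93, also with 0 calls.

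**Figure D1:**
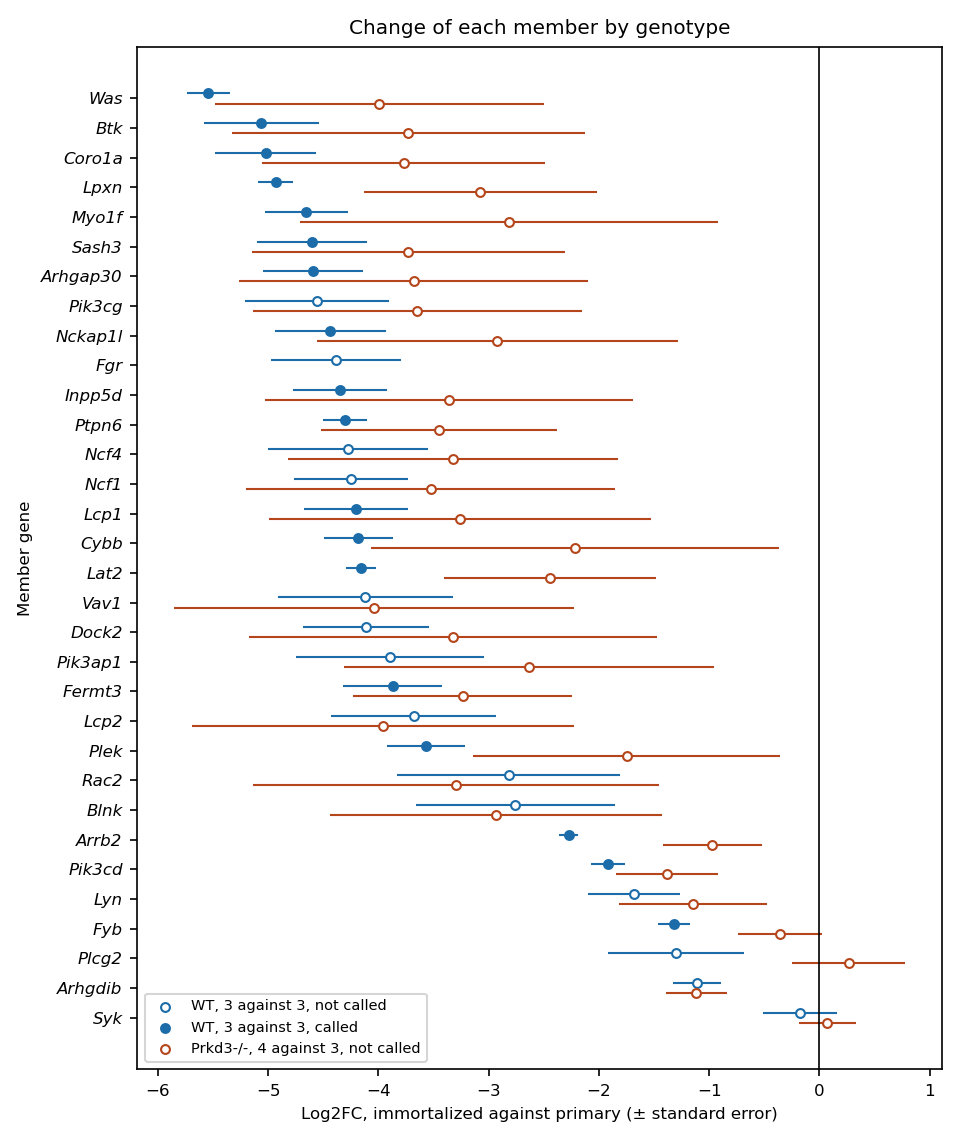
Log2FC of immortalized against primary libraries for each member (horizontal axis, log2 units), with bars of 1 standard error, in WT (blue) and Prkd3-/- (orange) cells. Filled points passed the threshold, and filled points occur in WT only. The orange bars are wider for most members. Nearest to 0 sit Syk, Plcg2, Arhgdib and Fyb in WT, and Syk, Plcg2, Fyb and Arrb2 in Prkd3-/- cells.

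The difference of the immortalization effect between genotypes was tested over the 13 libraries in a model with the 4 group means. It passed an adjusted p under 0.05 for 0 of 32 members in edgeR's test, beside 0% of 21197 genes, and for 0 members in DESeq2 (0.0495% of all genes lower and 0.122% higher) and in limma-voom (0% of all genes). At an unadjusted p under 0.05 stood 1 member, Arrb2, beside 3.97% of all genes. Its difference was 1.32 ± 0.53 on the log2 scale (unadjusted p = 0.0297, edgeR's quasi-likelihood test). The median difference of the members was 0.94, and it became -1.57 without line 13a and 2.17 without primary 14. The calls in WT alone therefore do not show that the genotypes differed in these genes.

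As a set, the members stood at a mean log2 CPM of 4.46, 4.44 and 4.49 in primary WT clones 3, 4 and 5, and of 0.19, 0.34 and 1.39 in the lines derived from them. Line 5 was the highest of the 3 lines. Primary Prkd3-/- clones 13, 14 and 15 stood at 1.90, 4.38 and 2.78, and lines 13, 13a, 14 and 15 at -2.39, 2.15, -1.65 and -0.94. Clone 14 was thus level with the WT primaries, and line 13a was above primary 13, its presumed source. Within the WT lines, line 5 was the highest for 25 of 32 members (35.1% of all genes). Among the Prkd3-/- primaries, clone 14 was the highest for 30 of 32 members (42.0% of all genes), and 28 members were at least 2-fold higher there than in the mean of clones 13 and 15, which held for 6.99% of all genes. Line 13a was the highest Prkd3-/- line for 26 of 32 members (18.1% of all genes).

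Set against the primary library of the same clone, 31 members were lower in WT line 3, 31 in line 4 and 32 in line 5, with median log2 ratios of -4.67, -4.74 and -3.32. For the Prkd3-/- lines, 27 members were lower in line 13, 32 in line 14 and 30 in line 15, with median log2 ratios of -3.78, -6.00 and -4.08. Line 13a, set against primary 13 as its presumed source, differed from these: 11 of 32 members were lower, and the median log2 ratio was 0.35. Over all genes, 48.6% to 52.5% were lower in a line than in its own primary.

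Macrophage markers moved in the same direction, with a negative Log2FC for 13 of 13 in each genotype. In WT, every line lay below every primary for 11 of the 13, beside 17.3% of all genes. In Prkd3-/- cells this held for 0 of the 13, beside 5.26% of all genes. The median marker stood at 4.95, 3.93 and 7.38% of the WT primary mean in WT lines 3, 4 and 5. Aif1 stood at 125% in WT line 5, and Mertk at 108% in WT line 4. The 13 markers summed to 1483, 1477 and 1431 CPM in the WT primaries and to 102.3, 73.7 and 154 CPM in the WT lines. In Prkd3-/- cells they summed to 167, 2065 and 394 CPM in primaries 13, 14 and 15, and to 30.9, 352, 21.8 and 39.1 CPM in lines 13, 13a, 14 and 15. In WT, 8 of the 13 were downregulated in edgeR's test (1.76% of all genes). In Prkd3-/- cells 0 were (0% of all genes), with 3 at an unadjusted p under 0.05 (6.56% of all genes). With the clone as a replicate block, 0 of the 13 were called in WT. Lyz2, the lysozyme of macrophages and the most abundant of them, stood at 741, 734 and 732 CPM in the WT primaries and 55.2, 24.2 and 40.1 CPM in the lines. Line 13 lacked counts for 5 of the 13 markers and line 15 for 1, while every other library had counts for all 13. The part of macrophage RNA in the changes of the members was not tested, and in bulk RNA fewer cells of a type and less RNA per cell cannot be told apart.

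Neutrophil, mast cell and erythroid markers were near 0: the 8 neutrophil markers summed to at most 0.979 CPM, the 5 mast cell markers to at most 0.500 CPM and the erythroid markers to at most 0.626 CPM in any library. B cell markers summed to at most 0.229 CPM except in WT line 4, which had 3.47 CPM, nearly all of it Cd79a. Of the 7 T and NK cell markers, at least 5 were at 0 counts in each library, and Cd247, which shares 60.3% of its exon bases with Pou2f1 and a predicted gene, made up most of the sum of 4.60 to 13.6 CPM. Platelet markers were not low throughout. They summed to 19.4 to 79.5 CPM, above the macrophage markers in line 14 (54.0 against 21.8 CPM), with Gp1bb at up to 53.2 CPM and Ppbp at up to 42.8 CPM. Gp1bb shares 92.9% of its exon bases with Sept5 and a predicted gene. Pf4, another platelet marker, had 123, 177 and 85 counts in the WT primaries, 5, 0 and 5 in the WT lines, 934 in primary 14 and 0 to 20 in the Prkd3-/- lines. The other platelet markers did not share this pattern. Of the 4 tested, 1 had a negative Log2FC in WT (median 0.26) and 3 in Prkd3-/- cells (median -1.75). Ppbp stood at 124, 1.70 and 394% of the WT primary mean in WT lines 3, 4 and 5, and at 29.0% in primary 14. Itga2b stood at 88.4, 88.8 and 128% in WT lines 3, 4 and 5. Endothelial markers summed to 10.7, 11.4 and 15.7 CPM in the WT primaries and 0.371, 0.711 and 1.96 CPM in the WT lines. All 3 of them that were tested in WT had a negative Log2FC, with a median of -3.35, and Tek was called (0 with the replicate block). In Prkd3-/- cells the endothelial sums were 24.0, 5.66 and 28.7 CPM in primaries and 1.55, 13.1, 17.3 and 13.3 CPM in lines 13, 13a, 14 and 15, with clone 14 the lowest primary. The part of platelet or endothelial RNA in the changes of the members was not tested.

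**Figure D2:**
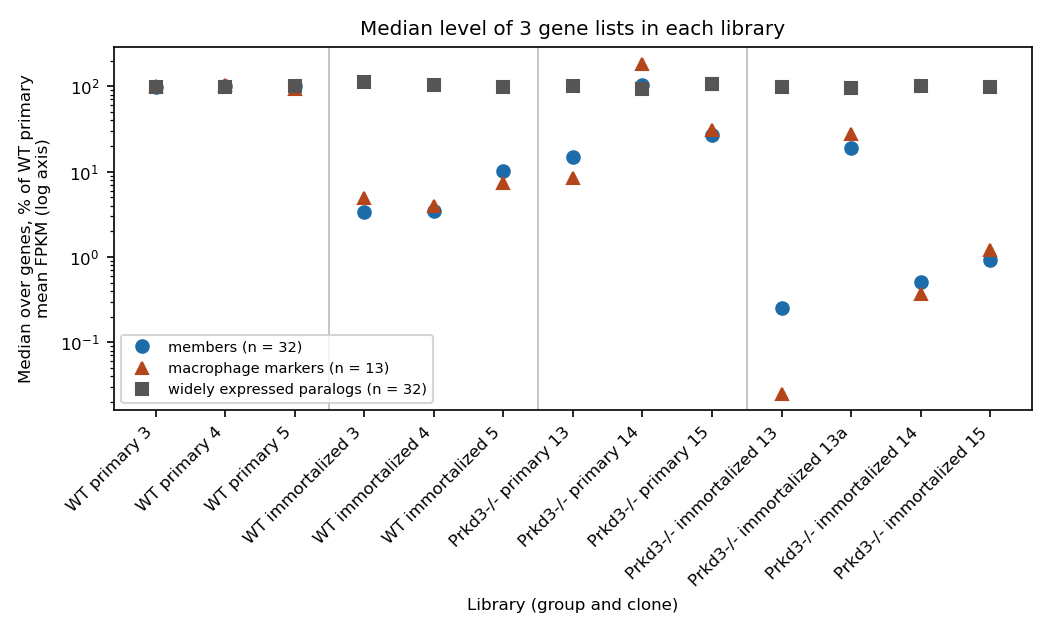
Median level of the 32 members (circles), 13 macrophage markers (triangles) and 32 widely expressed paralogs (squares) in each of the 13 libraries, as a percent of the mean FPKM of the 3 WT primaries (vertical log axis). Members and macrophage markers fall and rise together across the libraries, and the median of the paralogs stays between 92.8% and 111%. Single paralogs vary more, from 2.89% to 332% in line 13.

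In percent of the WT primary mean, the median member stood at 3.35, 3.44 and 10.2 in WT lines 3, 4 and 5. It stood at 15, 104 and 27.1 in Prkd3-/- primaries 13, 14 and 15, and at 0.252, 18.7, 0.509 and 0.931 in lines 13, 13a, 14 and 15. The WT and Prkd3-/- tables were counted separately, so levels set across genotypes carry any difference in counting. Depth limited the lowest values: in line 13, 7 members had 0 counts and 14 had under 3, and in line 14 these numbers were 2 and 10. In line 15, 1 member had 0 counts. A count of 0 allows up to 3 counts, which is 0.0299 to 0.0850 CPM over the 13 libraries, for counting error only.

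The promoters of the members were searched for short motifs of factors known in blood cells, whether the member was called in WT or not. RefSeq's table (GRCm38.p6) had a promoter for 26 of the 32 members, 15 of them called lower in WT, and Lyn, Lat2, Ncf4, Rac2, Nckap1l and Arrb2 had no entry. The letters GAGGAA, the core bound by PU.1, an ETS factor of myeloid cells, were found on either strand in the 250 bases before the start for 10 of 26 members (38.5%), and for 25.9% of all genes with a promoter. Among the 15 called members it was found for 4 (26.7%), close to the share of all genes, and counted per promoter it was in 29.4% of the 34 promoters of members and 23.3% of all promoters. The wider ETS core GGAAGT, which can overlap it, was found for 11 members (42.3%), 5 of the 15 called members (33.3%) and 22.2% of all genes. When the first 50 transcribed bases were added, GAGGAA was found for 16 members (61.5%) and 8 called members (53.3%) against 31.3% of all genes, and GGAAGT for 15 members (57.7%) and 7 called members (46.7%) against 26.5%. In the 250-base window the RUNX core TGTGGT was found for 5 members (19.2% against 15.9%), the GC box GGGCGG for 9 (34.6% against 35.4%), TGANTCA for 1 (3.85% against 7.82%), and TATAAA for 1 (3.85% against 14.3%). A match describes these letters only.

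Promoters are shown for Lpxn, Was and Ptpn6, the members with an entry whose change in WT had the smallest p, and for Syk, whose change had the largest. Each line gives the 250 bases before the start, 5′ to 3′ on the strand of the gene, with GAGGAA or GGAAGT on either strand in capitals. Lpxn lies at chr19:12795943-12796192 (+), Was at chrX:8090492-8090741 (-), Ptpn6 at chr6:124738710-124738959 (-), and the more upstream of the Syk starts at chr13:52583187-52583436 (+). The Syk gene as counted begins at chr13:52583173, upstream of this window, so the window precedes a RefSeq start that lies inside the gene.
Lpxn: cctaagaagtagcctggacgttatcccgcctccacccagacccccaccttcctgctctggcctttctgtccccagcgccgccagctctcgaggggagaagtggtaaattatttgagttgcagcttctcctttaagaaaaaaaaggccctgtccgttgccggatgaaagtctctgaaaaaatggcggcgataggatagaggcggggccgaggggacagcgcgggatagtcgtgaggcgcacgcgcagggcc
Was: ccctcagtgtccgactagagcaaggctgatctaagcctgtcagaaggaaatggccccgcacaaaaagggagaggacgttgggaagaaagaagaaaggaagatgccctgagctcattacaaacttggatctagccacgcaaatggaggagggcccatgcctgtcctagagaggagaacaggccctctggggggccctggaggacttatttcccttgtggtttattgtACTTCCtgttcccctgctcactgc
Ptpn6: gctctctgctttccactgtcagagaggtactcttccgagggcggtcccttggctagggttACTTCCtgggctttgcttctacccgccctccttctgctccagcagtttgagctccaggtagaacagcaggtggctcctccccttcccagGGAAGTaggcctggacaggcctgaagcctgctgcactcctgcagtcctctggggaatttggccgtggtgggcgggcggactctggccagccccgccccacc
Syk: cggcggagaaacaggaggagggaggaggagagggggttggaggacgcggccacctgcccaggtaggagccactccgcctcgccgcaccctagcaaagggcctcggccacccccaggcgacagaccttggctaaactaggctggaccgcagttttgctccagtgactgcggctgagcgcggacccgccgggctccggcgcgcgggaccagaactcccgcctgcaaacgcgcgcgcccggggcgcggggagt
Was held the ETS core once, read from the opposite strand, 24 to 19 bases before the start. Ptpn6 held it at 190 to 185 bases on the opposite strand and at 101 to 96 bases on its own. Lpxn and the upstream Syk promoter held neither set of letters in this window. The other Syk promoter in the table held GAGGAA 9 to 4 bases before its start.

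**Figure D3:**
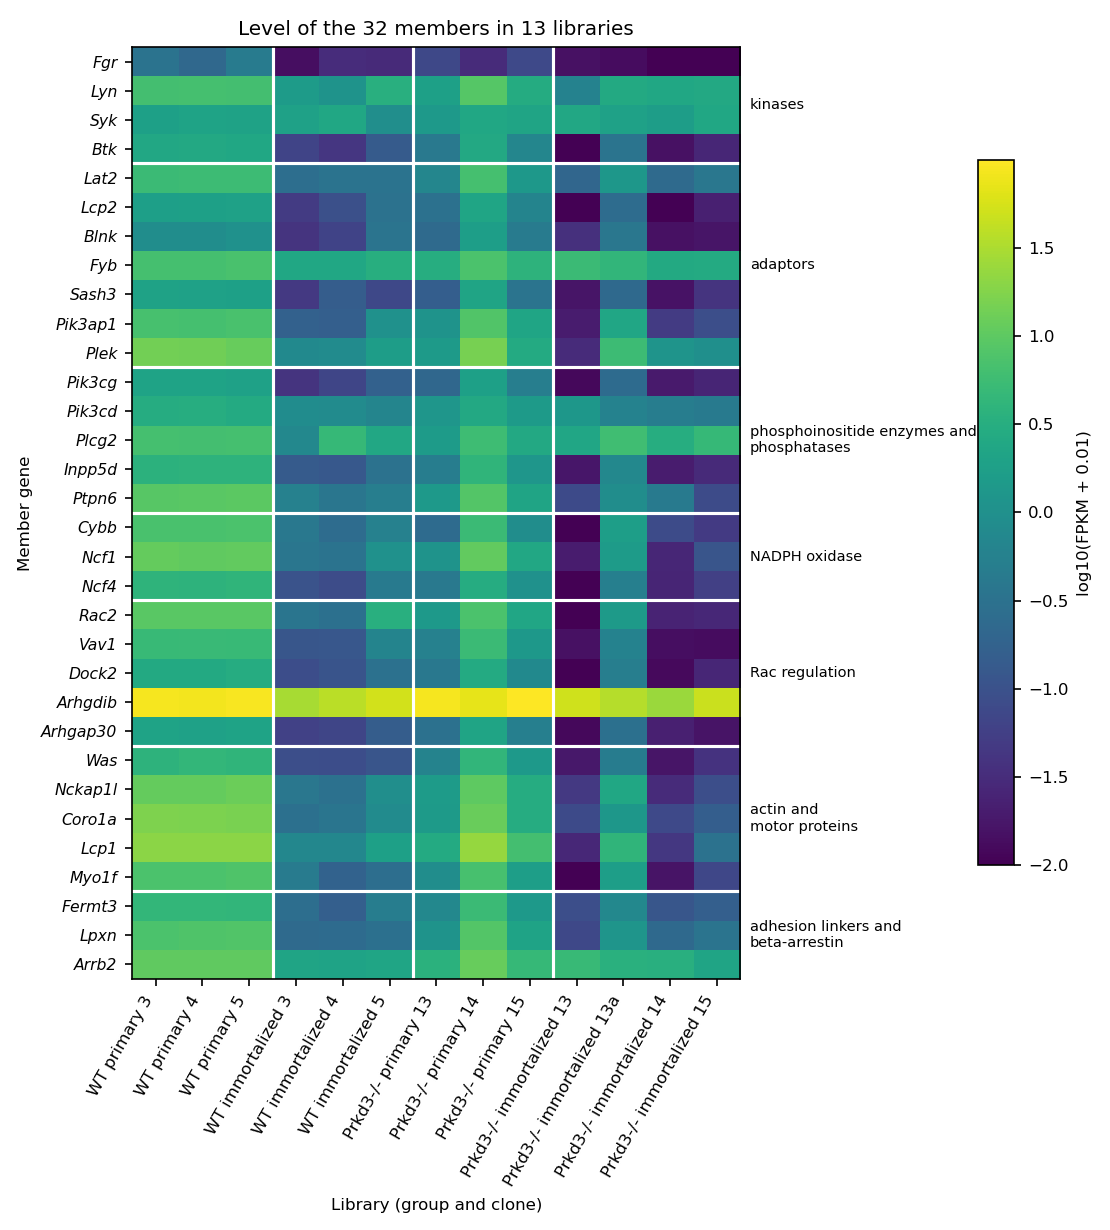
Level of each member (rows, by role) in the 13 libraries (columns), as log10(FPKM + 0.01). The WT primaries and Prkd3-/- primary 14 form the bright columns, line 13 the darkest, and Arhgdib is the brightest row in every library.

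Among the 4 kinases, Btk was called downregulated in WT (1.76% of all genes). In 3 of the 4, every WT line lay below every WT primary (17.3% of all genes). Btk, a Tec family kinase that activates phospholipase C gamma, stood at 2.45, 2.57 and 2.42 FPKM (counts scaled to exon length and library size) in the WT primaries and at 0.0563, 0.0323 and 0.131 FPKM in lines 3, 4 and 5. Every line was far below its primary (Log2FC = -5.06 ± 0.52, adjusted p = 0.00620, edgeR). Prkd3-/- primaries 13, 14 and 15 held Btk at 0.395, 2.53 and 0.668 FPKM, and lines 13, 13a, 14 and 15 at 0, 0.335, 0.00497 and 0.0171 FPKM. The highest line, 13a, was below the lowest primary, and the change did not pass the test (Log2FC = -3.73 ± 1.60, -7.17 without line 13a, -2.55 without primary 14, adjusted p = 0.763). Its paralog Tec stood at 0.651 to 2.66 FPKM over the 13 libraries (WT Log2FC = -1.20 ± 0.44, adjusted p = 0.210).

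Lyn, a Src family kinase at the head of many leukocyte receptors, had the highest FPKM of the kinases in the primaries of both genotypes, while Syk was above it in WT lines 3 and 4 and in line 13. WT primaries held it at 6.33, 6.45 and 6.37 FPKM and the lines derived from them at 1.53, 1.11 and 3.32 FPKM. Line 5 kept more than lines 3 and 4, and the change was not called (Log2FC = -1.68 ± 0.41, adjusted p = 0.0904 in edgeR, 0.00145 in DESeq2). Prkd3-/- levels of Lyn stood at 1.86, 8.78 and 2.90 FPKM in the primaries and 0.581, 2.67, 2.37 and 2.56 FPKM in lines 13, 13a, 14 and 15. Apart from the low line 13, the lines overlapped primaries 13 and 15 (Log2FC = -1.15 ± 0.67, -1.31 without line 13a, -0.22 without primary 14, adjusted p = 0.831). Src, Fyn and Yes1, its widely expressed relatives, stood at 20.1 to 40.1, 7.28 to 21.1 and 3.75 to 6.5 FPKM, and Fyn was higher in the WT lines without being called (Log2FC = 0.71 ± 0.14, adjusted p = 0.0432).

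Syk, the kinase that docks on phosphorylated receptor motifs, was the member that moved least. Its level was 1.87, 2.05 and 2.01 FPKM in WT primaries and 1.95, 2.37 and 0.928 FPKM in lines 3, 4 and 5, with line 5 below and line 4 above the primaries (Log2FC = -0.18 ± 0.34, adjusted p = 0.821). Prkd3-/- primaries had 1.42, 2.38 and 2.16 FPKM and lines 2.49, 1.92, 1.64 and 2.39 FPKM, with full overlap (Log2FC = 0.07 ± 0.26, 0.10 without line 13a, 0.22 without primary 14, adjusted p = 0.969). WT line 3 lay within the range of the primaries. Fgr, another Src family kinase, had the lowest FPKM of the members in WT primaries, with 0.326, 0.214 and 0.449 FPKM there and 0.00417, 0.0219 and 0.0198 FPKM in WT lines (Log2FC = -4.38 ± 0.59, adjusted p = 0.0140). Its Prkd3-/- counts did not pass the filter, with 0.0627, 0.0215 and 0.0654 FPKM in primaries and 0.00494, 0.00355, 0 and 0 FPKM in lines. Fgr and Arhgdib were the members for which clone 14 was not the highest Prkd3-/- primary.

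**Figure D4:**
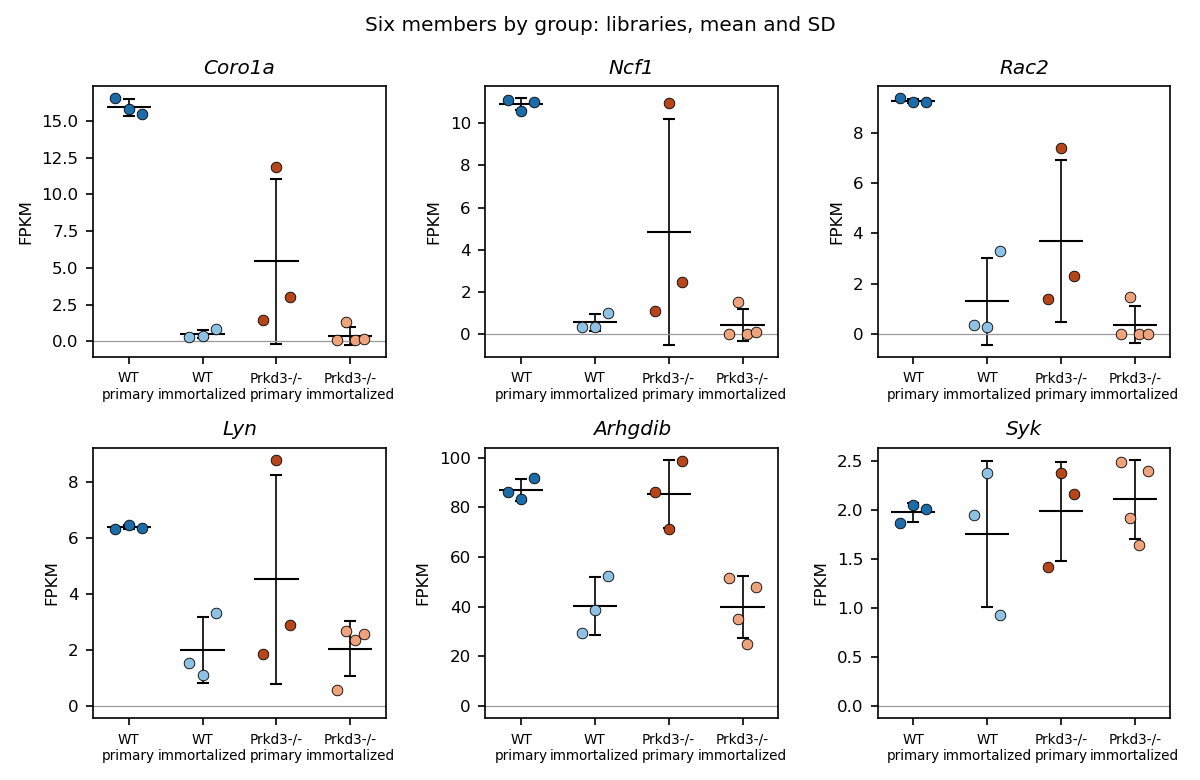
FPKM (linear vertical axes) of Coro1a, Ncf1, Rac2, Lyn, Arhgdib and Syk in each library by group (points), with the group mean and SD (bars, n = 3, 3, 3 and 4). Coro1a, Ncf1 and Rac2 show tight high WT primaries and 1 high Prkd3-/- primary, Arhgdib separates the states in both genotypes, and Syk overlaps throughout.

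The 7 adaptors all had lower levels in every WT line than in every WT primary (17.3% of all genes). Of the 7, 4 were called (1.76% of all genes). Plek, pleckstrin, a protein kinase C substrate of platelets and leukocytes, stood at 14.1, 13.4 and 11.6 FPKM in WT primaries and 0.765, 0.838 and 1.69 FPKM in lines 3, 4 and 5. It fell (Log2FC = -3.57 ± 0.36, adjusted p = 0.00560), with line 5 the highest line. In Prkd3-/- primaries Plek was at 1.51, 15 and 2.73 FPKM and in lines 13, 13a, 14 and 15 at 0.0213, 5.49, 1.16 and 0.981 FPKM. Line 13a exceeded primaries 13 and 15, and line 13 was nearly without the transcript (Log2FC = -1.75 ± 1.39, -3.16 without line 13a, -0.15 without primary 14, adjusted p = 0.855). Plek2, its paralog outside leukocytes, stood at 0 to 0.567 FPKM.

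Pik3ap1, which recruits phosphoinositide 3-kinase to receptors, was at 6.73, 6.43 and 7.01 FPKM in the WT primaries and 0.165, 0.152 and 1.04 FPKM in the lines. Line 5 was above lines 3 and 4, and the change was not called (Log2FC = -3.89 ± 0.85, adjusted p = 0.0659 in edgeR, 2.1e-06 in DESeq2). Its Prkd3-/- levels were 1.11, 8.12 and 2.20 FPKM in primaries and 0.0103, 2.32, 0.0393 and 0.0799 FPKM in lines. Again clone 14 and line 13a were the high libraries of their states (Log2FC = -2.64 ± 1.68, -6.45 without line 13a, -1.43 without primary 14, adjusted p = 0.841).

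Lcp2, the scaffold that joins Vav and phospholipase C to activated receptors, stood at 1.81, 1.83 and 1.89 FPKM in WT primaries and 0.0398, 0.0835 and 0.305 FPKM in the lines (Log2FC = -3.68 ± 0.75, adjusted p = 0.0538). Prkd3-/- levels of Lcp2 were 0.300, 2.19 and 0.636 FPKM in primaries and 0, 0.252, 0 and 0.0121 FPKM in lines, so that even 13a was below every primary (Log2FC = -3.96 ± 1.73, -7.77 without line 13a, -2.80 without primary 14, adjusted p = 0.768). Blnk, the related scaffold of B cells and macrophages, was at 0.899, 0.887 and 1.02 FPKM in WT primaries and 0.0296, 0.0537 and 0.329 FPKM in the lines. Line 5 held the highest level of the lines (Log2FC = -2.76 ± 0.90, adjusted p = 0.174). Blnk in Prkd3-/- cells was at 0.233, 1.71 and 0.445 FPKM in primaries and 0.0255, 0.377, 0.00522 and 0.00676 FPKM in lines (Log2FC = -2.94 ± 1.51, -6.05 without line 13a, -1.70 without primary 14, adjusted p = 0.804).

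Lat2, a membrane adaptor of myeloid and B cells, and Sash3, an adaptor of lymphocytes, fell in WT from 5.41 ± 0.125 to 0.303 ± 0.0279 FPKM and from 1.93 ± 0.0562 to 0.0794 ± 0.0535 FPKM (mean ± SD, n = 3 each). Fyb, which couples receptors to integrins, fell less, from 6.67 ± 0.290 to 2.68 ± 0.487 FPKM (Log2FC = -1.32 ± 0.15, adjusted p = 0.00780). Fyb was also well retained in the Prkd3-/- lines, at 2.64 to 5.30 FPKM, and line 13 was its highest line there. Exons of Lat2 share 36.3% of their bases with Rfc2 and those of Fyb share 10.2% with predicted genes, and a read pair was counted for each gene it overlapped in the WT table, so levels of these genes may hold reads of the neighbour.

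Of the 5 phosphoinositide enzymes and phosphatases, 3 were called downregulated in WT (1.76% of all genes). All 5 were lower in every WT line than in every WT primary (17.3% of all genes). Ptpn6, the tyrosine phosphatase that dampens receptor signals, had 8.95, 9.32 and 9.62 FPKM in the WT primaries and 0.552, 0.356 and 0.502 FPKM in the lines. The lines were close together, and the change had a small error (Log2FC = -4.30 ± 0.20, adjusted p = 0.000471). Prkd3-/- primaries had 1.42, 8.28 and 2.15 FPKM and lines 0.0681, 0.885, 0.419 and 0.0722 FPKM. All 4 lines lay below all 3 primaries, without passing the test (Log2FC = -3.45 ± 1.07, -4.41 without line 13a, -2.30 without primary 14, adjusted p = 0.632). Ptpn11, the paralog found in most cells, stood at 28.4 to 40.9 FPKM and was not called in either genotype.

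Plcg2, the leukocyte form of phospholipase C gamma, differed between lines more than between states. WT primaries had 6.54, 6.36 and 6.49 FPKM, and lines 3, 4 and 5 had 0.724, 4.70 and 2.46 FPKM. Line 4 kept most of the primary level and line 3 little of it (Log2FC = -1.30 ± 0.62, adjusted p = 0.322). Plcg2 in Prkd3-/- cells was at 1.57, 5.73 and 2.58 FPKM in primaries and 2.27, 5.92, 3.06 and 4.72 FPKM in lines, and line 13a was the highest of the 7 (Log2FC = 0.27 ± 0.51, -0.000768 without line 13a, 0.94 without primary 14, adjusted p = 0.935). Plcg1 ranged over 10.4 to 14.7 FPKM in the 13 libraries.

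Pik3cg, the catalytic subunit driven by G protein-coupled receptors, stood at 2.08, 2.03 and 1.94 FPKM in WT primaries and 0.0306, 0.0583 and 0.167 FPKM in lines. The adjusted p was above the threshold in edgeR and below it in DESeq2 (Log2FC = -4.56 ± 0.65, adjusted p = 0.0177 and 5.3e-14). Its Prkd3-/- levels were 0.208, 1.83 and 0.493 FPKM in primaries and 0.00227, 0.241, 0.00928 and 0.0160 FPKM in lines (Log2FC = -3.65 ± 1.5, -6.47 without line 13a, -2.37 without primary 14, adjusted p = 0.738). Pik3cd, the subunit used by antigen receptors, fell from 2.95 ± 0.151 to 0.780 ± 0.126 FPKM in WT (mean ± SD, n = 3 each), and Inpp5d, the lipid phosphatase that opposes them, fell from 3.77 ± 0.105 to 0.184 ± 0.105 FPKM. The widely expressed Pik3ca and Pik3cb stood at 5.76 to 10.2 and 1.74 to 9.64 FPKM and were not called.

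All 3 oxidase subunits were lower in every WT line than in every WT primary (17.3% of all genes), and Cybb was called (1.76%). Cybb, the membrane subunit that carries electrons to oxygen, had 7.13, 7.11 and 7.29 FPKM in WT primaries and 0.386, 0.248 and 0.550 FPKM in the lines (Log2FC = -4.18 ± 0.31, adjusted p = 0.00248). Prkd3-/- primaries had 0.240, 5.30 and 0.913 FPKM and lines 0, 1.75, 0.0727 and 0.0372 FPKM. Line 13a held more Cybb than primaries 13 and 15, whereas line 13 was at 0 (Log2FC = -2.21 ± 1.85, -5.86 without line 13a, -0.31 without primary 14, adjusted p = 0.859).

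Ncf1, the cytosolic organizer of the oxidase, was the most abundant subunit in the primaries of both genotypes, while Cybb was above it in WT line 3 and in lines 13a and 14. WT primaries had 11.1, 10.6 and 11 FPKM and lines 3, 4 and 5 had 0.356, 0.328 and 1.03 FPKM, and the adjusted p missed the threshold by little (Log2FC = -4.25 ± 0.52, adjusted p = 0.0104 in edgeR, 1.5e-17 in DESeq2). Ncf1 in Prkd3-/- cells stood at 1.11, 11 and 2.49 FPKM in primaries and 0.0104, 1.55, 0.0171 and 0.103 FPKM in lines (Log2FC = -3.53 ± 1.67, -6.77 without line 13a, -2.09 without primary 14, adjusted p = 0.788). Outside line 13a, the lines held little of it. Ncf1 shares 11.1% of its exon bases with Gtf2ird2. Ncf4, a cytosolic subunit that binds phosphoinositide, had 3.95, 3.83 and 4.17 FPKM in WT primaries and 0.0957, 0.0754 and 0.439 FPKM in lines (Log2FC = -4.28 ± 0.73, adjusted p = 0.0302). Its Prkd3-/- levels were 0.399, 3.00 and 1.03 FPKM in primaries and 0, 0.522, 0.0155 and 0.0468 FPKM in lines (Log2FC = -3.32 ± 1.5, -6.05 without line 13a, -2.26 without primary 14, adjusted p = 0.779). Nox4, the oxidase catalytic subunit known in fibroblasts, stood at 0.930 to 5.10 FPKM and did not pass the test in either genotype.

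In the Rac pathway Arhgap30 was called in WT (1.76% of all genes). All 5 members were lower in every WT line than in every WT primary (17.3% of all genes). Arhgdib was by far the most abundant of the 32 members in FPKM. Its level was 86.0, 83.3 and 91.6 FPKM in WT primaries and 29.4, 38.7 and 52.5 FPKM in lines 3, 4 and 5. The fall passed an adjusted p under 0.05 and not the 0.01 used here (Log2FC = -1.11 ± 0.22, adjusted p = 0.0459). Prkd3-/- primaries had 86.2, 71.4 and 98.8 FPKM and lines 51.7, 35.1, 24.8 and 47.9 FPKM, so the states did not overlap there either. Clone 14 was the lowest primary, and line 13a was not the highest line, unlike most members (Log2FC = -1.12 ± 0.27, -1.08 without line 13a, -1.23 without primary 14, unadjusted p = 0.00397, adjusted p = 0.485, edgeR's quasi-likelihood test). Arhgdia, its paralog in most cells, stood at 293 to 494 FPKM.

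Rac2, the leukocyte Rac GTPase, stood at 9.37, 9.23 and 9.22 FPKM in WT primaries and 0.343, 0.289 and 3.31 FPKM in lines. Line 5 was far above the other lines, and the error of the change was large (Log2FC = -2.82 ± 1.01, adjusted p = 0.207). Rac2 was at 1.41, 7.39 and 2.31 FPKM in the Prkd3-/- primaries and at 0, 1.47, 0.0151 and 0.0174 FPKM in lines (Log2FC = -3.30 ± 1.84, -8.29 without line 13a, -2.30 without primary 14, adjusted p = 0.826). Line 13a was close to primary 13, and the other 3 lines were nearly without it. Rac1, present in nearly all cells, stood at 86.0 to 122 FPKM over the 13 libraries, above Rac2 in each of them, and Daglb overlaps 51.4% of the Rac1 exon bases, while Rac3 stood at 2.01 to 9.13 FPKM.

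Vav1, an exchange factor that loads Rac with GTP, had 4.94, 5.06 and 4.92 FPKM in WT primaries and 0.109, 0.110 and 0.635 FPKM in the lines (Log2FC = -4.12 ± 0.79, adjusted p = 0.0451). Its Prkd3-/- levels were 0.563, 5.35 and 1.35 FPKM in primaries and 0.00518, 0.572, 0.00424 and 0.00366 FPKM in lines (Log2FC = -4.04 ± 1.82, -9.01 without line 13a, -2.70 without primary 14, adjusted p = 0.779). Dock2, an exchange factor of another family, had 2.68, 2.64 and 2.95 FPKM in WT primaries and 0.0790, 0.0978 and 0.299 FPKM in lines (Log2FC = -4.12 ± 0.57, adjusted p = 0.0161). For both genes line 5 was the highest WT line. Dock2 stood at 0.390, 2.74 and 0.788 FPKM in Prkd3-/- primaries and at 0, 0.501, 0.00274 and 0.0165 FPKM in lines (Log2FC = -3.32 ± 1.85, -7.58 without line 13a, -2.17 without primary 14, adjusted p = 0.825). Arhgap30 fell in WT from 2.0 ± 0.0957 to 0.0823 ± 0.0493 FPKM (mean ± SD, n = 3 each).

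The paralog Vav3 fell as well in WT, from 1.47 ± 0.101 to 0.112 ± 0.0448 FPKM (Log2FC = -3.71 ± 0.31, adjusted p = 0.00311, and 0.0301 with the replicate block), and was the paralog called among the 31 tested. Vav2 was at 1.24 to 6.27 FPKM, Dock1 at 9.97 to 16.9 FPKM and Dock5 at 3.03 to 19.8 FPKM, none of them called. Of the 32 paralogs listed, 6 had every WT line below every WT primary (17.3% of all genes). Another 9 had every WT line above, for which the share of all genes is not given here. Over all paralogs tested, the median Log2FC was 0.13 in WT and near 0 (-0.000114) in Prkd3-/- cells. In the latter 0 were called (0% of all genes), and 4 stood at an unadjusted p under 0.05 (6.56% of all genes).

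**Figure D5:**
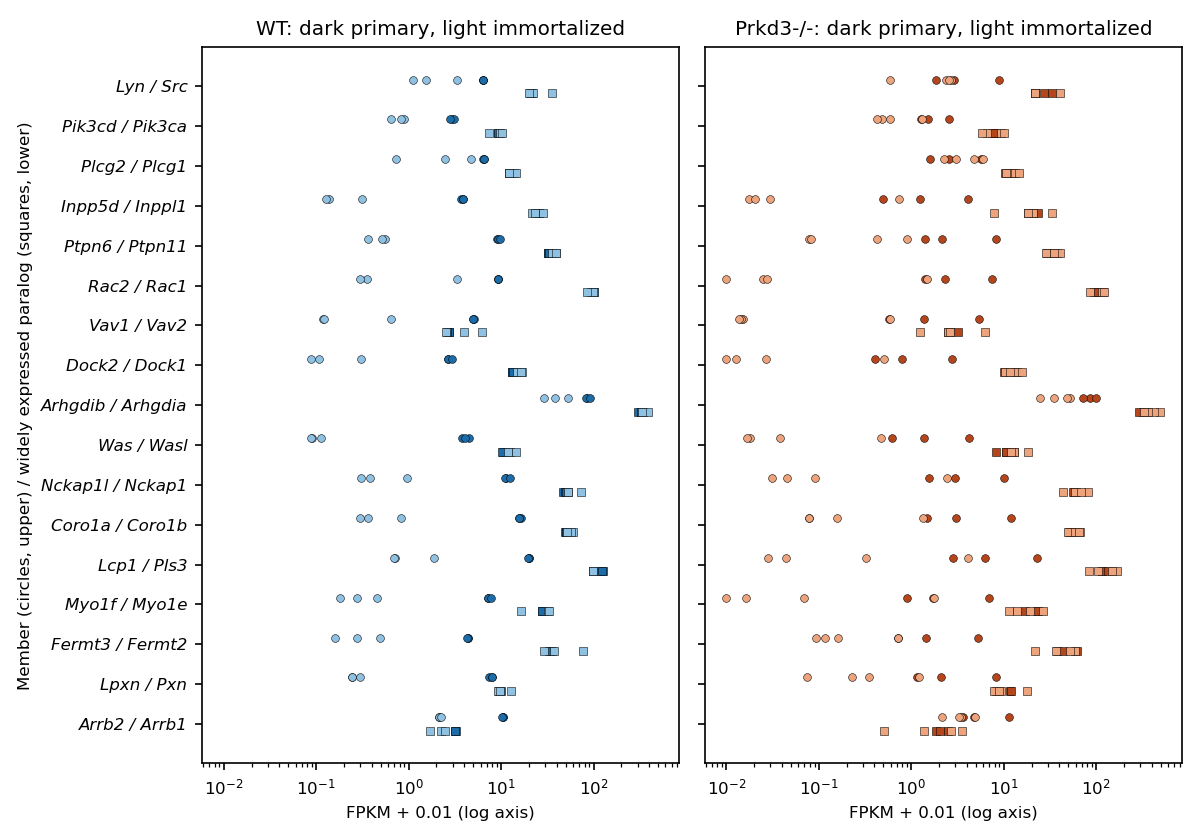
FPKM + 0.01 (horizontal log axis) of 17 members (circles) and a widely expressed paralog of each (squares) in the WT libraries (left) and the Prkd3-/- libraries (right), with primary libraries dark and immortalized libraries light. The circles of most members spread widely between libraries, while most squares of a drawn paralog lie close together. The pairs were chosen by hand, and other paralogs are not drawn. Among those left out are Vav3, called in WT, and Pik3cb and Sash1, at 332% and 7.02% of the WT primary mean in line 13.

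All 5 actin and motor proteins were called in WT (1.76% of all genes). Lcp1, plastin of leukocytes, which bundles actin filaments, stood at 20.3, 20.1 and 19.7 FPKM in WT primaries and 0.705, 0.688 and 1.87 FPKM in lines (Log2FC = -4.20 ± 0.47, adjusted p = 0.00781). In the Prkd3-/- primaries Lcp1 had 2.80, 23.1 and 6.33 FPKM and in lines 13, 13a, 14 and 15 it had 0.0181, 4.13, 0.0346 and 0.311 FPKM. Clone 14 exceeded the WT primaries, and line 13a exceeded primary 13 (Log2FC = -3.26 ± 1.73, -6.48 without line 13a, -2.02 without primary 14, adjusted p = 0.812). Pls3, the plastin of other tissues, stood at 83.5 to 166 FPKM.

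Coro1a, coronin of leukocytes, which binds filaments at the cell edge, had 16.5, 15.8 and 15.4 FPKM in WT primaries and 0.290, 0.353 and 0.824 FPKM in the lines. It was among the members with the greatest fall (Log2FC = -5.02 ± 0.46, adjusted p = 0.00435). Prkd3-/- primaries had 1.47, 11.9 and 3.01 FPKM and lines 0.0686, 1.31, 0.0674 and 0.145 FPKM, and 13a lay just below primary 13 (Log2FC = -3.77 ± 1.29, -5.87 without line 13a, -2.49 without primary 14, adjusted p = 0.669). Coro1b and Coro1c, the coronins of most cells, stood at 49.0 to 67.2 and 10.6 to 31.1 FPKM.

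Was, which starts branched actin networks downstream of small GTPases, had the greatest change of all members, from 4.11 ± 0.312 to 0.0874 ± 0.0134 FPKM in WT (Log2FC = -5.54 ± 0.19, adjusted p = 0.000254). Its paralog Wasl stood at 8.30 to 18.4 FPKM. Nckap1l, the blood cell subunit of the WAVE complex, fell from 11.6 ± 0.786 to 0.535 ± 0.353 FPKM, and Myo1f, a membrane-bound myosin of leukocytes, from 7.38 ± 0.311 to 0.293 ± 0.137 FPKM. In Prkd3-/- cells Was was lower in all 4 lines (0.00657 to 0.466 FPKM) than in all 3 primaries (0.605 to 4.18 FPKM), while line 13a was above primary 13 for Nckap1l and Myo1f.

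All 3 adhesion linkers and beta-arrestin were called in WT (1.76% of all genes). Lpxn, leupaxin, a focal adhesion adaptor of leukocytes, stood at 7.39, 7.94 and 8.01 FPKM in WT primaries and 0.234, 0.236 and 0.291 FPKM in lines. The 3 lines were close to each other (Log2FC = -4.93 ± 0.16, adjusted p = 0.000254). Prkd3-/- levels of Lpxn were 1.13, 8.28 and 2.07 FPKM in primaries and 0.0640, 1.19, 0.218 and 0.339 FPKM in lines, with 13a level with primary 13 (Log2FC = -3.08 ± 1.05, -4.21 without line 13a, -1.81 without primary 14, adjusted p = 0.674). Pxn and Tgfb1i1, paxillin family members of fibroblasts, stood at 7.84 to 17.7 and 23.6 to 52.3 FPKM.

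Arrb2, the beta-arrestin that turns off and redirects G protein-coupled receptors, had 10.4, 10.4 and 10.3 FPKM in WT primaries and 2.11, 2.10 and 2.22 FPKM in lines 3, 4 and 5. The spread within each WT state was small (Log2FC = -2.27 ± 0.09, adjusted p = 0.000302). Its Prkd3-/- levels were 3.60, 11.5 and 4.80 FPKM in primaries and 4.83, 3.45, 3.26 and 2.13 FPKM in lines, and line 13 was above primary 13 (Log2FC = -0.97 ± 0.45, -0.996 without line 13a, -0.31 without primary 14, adjusted p = 0.788). Arrb1 stood at 0.499 to 3.51 FPKM. Fermt3, the kindlin that activates integrins of blood cells, fell from 4.38 ± 0.0662 to 0.298 ± 0.169 FPKM in WT (Log2FC = -3.87 ± 0.45, adjusted p = 0.00866). In Prkd3-/- cells it stood at 0.713 to 5.27 FPKM in primaries and 0.0825 to 0.713 FPKM in lines. The states met there, with line 13a at 4.125 CPM and primary 13 at 4.127 CPM. Fermt2, the kindlin of fibroblasts, stood at 21.7 to 76.4 FPKM.

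A longer list of 46 other leukocyte signaling genes gave the background of the pathway. In WT, 39 of them were tested, and the median Log2FC was -2.13. In edgeR's test 11 were downregulated (1.76% of all genes) and 0 upregulated (0.0605%). DESeq2 called 20, beside 5.09% of its genes called lower, and limma-voom 9, beside 0.923%. With the clone as a replicate block 0 were called, beside 0% of all genes called lower. The smallest p belonged to Arhgap9 (Log2FC = -5.29 ± 0.22, adjusted p = 0.000356), Arhgap45 (Log2FC = -4.35 ± 0.29, adjusted p = 0.00165) and Arhgap25 (Log2FC = -4.07 ± 0.28, adjusted p = 0.00170). In Prkd3-/- cells 0 of 38 were called in edgeR's test (0% of all genes) and 3 in DESeq2, beside 0.67% of its genes called lower. At an unadjusted p under 0.05 in edgeR's test stood 10 (6.56% of all genes), and the median Log2FC was -1.77. The smallest p there belonged to Cytip, which regulates cytohesin in leukocytes (Log2FC = -4.40 ± 0.75, adjusted p = 0.296), the docking adaptor Dok2 (Log2FC = -3.47 ± 0.64, adjusted p = 0.296) and the adaptor Grap (Log2FC = -4.53 ± 1.12, adjusted p = 0.485). Dok2 was below every primary in all 4 Prkd3-/- lines, at 0.822, 3.60 and 1.19 FPKM in primaries and 0.0855, 0.260, 0.183 and 0.149 FPKM in lines, so it was low in line 13a as well.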

How the data were processed

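Poly-A RNA of 13 MEF cultures was sequenced as read pairs by the authors, who aligned them with STAR 2.7.10a to mouse GRCm38 and counted genes with featureCounts (Subread 2.0.6). The deposited values are whole-number counts per gene, in 1 table per genotype. Per the file headers, WT pairs were counted without strand and once for every gene they overlapped; the options for the Prkd3-/- table are not given in the sources used here. Mitochondrial genes had 0 counts.

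Counts were analysed in R 4.3.3 with edgeR 4.0.16 (TMM, filterByExpr, robust quasi-likelihood test) within each genotype, and over 13 libraries for the difference of effects. Adjusted p-values are Benjamini-Hochberg values over all genes tested. A call needed an adjusted p under 0.01 with a |Log2FC| of at least 1, or under 0.05 for the difference. FPKM used TMM library sizes and exon lengths, and log2 CPM a prior count of 1. Clone ratios used CPM plus 0.1. Scripts were tested on simulated data. The members, roles and lists were chosen with earlier results of these data known. Values in every library are given for members called in both genotypes or neither and for the 2 highest of each role in WT primaries, and the other lists are named by level or smallest p.

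The clone numbers pair each line with the primary of the same number, with line 13a taken as clone 13. Deviations of same-numbered libraries correlated at -0.033, 0.019 and -0.039 for WT clones 3, 4 and 5, and at 0.142, -0.283, 0.088 and 0.040 for lines 13, 13a, 14 and 15. Some pairs with unlike numbers were higher: 0.337 for primary 14 with line 13a, 0.305 for primary 15 with line 13 and 0.062 for WT primary 5 with line 3. Others were low, down to -0.305 for primary 14 with line 13. Alternatives were DESeq2 1.42.0, limma 3.58.1 (voom with a weight per state), other size factors, other filters, a clone block, a joint fit, lines 13 and 13a summed, and each library left out. Intervals from counts cover counting error only.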

Additional observations from a re-analysis of the deposited data

Results flagged for a closer look

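In the group of 4 immortalized Prkd3-/- lines, the highest or lowest library stood far from the other 3 for 22 of 32 members. The rule used flags about 1 in 20 groups by chance when values are normally distributed. FPKM with values at or near 0 need not be, and the share of all genes flagged is not given here. The 22 flagged members share libraries and are not independent, so no excess over chance is read from their number. For 21 of the 22 the library was line 13a, on the high side, which was taken to be of the same clone as line 13. Among signaling genes, line 13a held Btk at 0.335 FPKM, Lat2 at 1.28 FPKM, Lcp2 at 0.252 FPKM, Blnk at 0.377 FPKM, Sash3 at 0.220 FPKM and Pik3ap1 at 2.32 FPKM. Of the lipid enzymes and oxidase subunits, it held Pik3cg at 0.241 FPKM, Inpp5d at 0.723 FPKM, Cybb at 1.75 FPKM, Ncf1 at 1.55 FPKM and Ncf4 at 0.522 FPKM. In the Rac pathway the values were 1.47 FPKM for Rac2, 0.572 FPKM for Vav1, 0.501 FPKM for Dock2 and 0.284 FPKM for Arhgap30. Cytoskeletal genes stood at 0.466 FPKM for Was, 2.42 FPKM for Nckap1l, 1.31 FPKM for Coro1a, 4.13 FPKM for Lcp1 and 1.73 FPKM for Myo1f, and the integrin activator Fermt3 stood at 0.713 FPKM. The other gene was Lyn, which line 13 held at 0.581 FPKM, far below the other 3 lines. The sum of the 13 macrophage markers was also highest in line 13a, at 352 CPM, against 21.8 to 39.1 CPM in lines 13, 14 and 15. The part of these markers in the values of the members was not tested.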

How the results depend on the processing

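The WT count of 18 members was 29 with DESeq2, which gave no adjusted p for Rac2, 0 with the clone as a replicate block and 0 in a joint fit of the 13 libraries. Leaving out each library in turn gave 5 to 28. The count stayed between 16 and 25 under the other alternatives: limma-voom, other size factors, other filters, no robust estimation and an adjusted p under 0.05. The shares of all genes called in the joint fit and with a library left out are not given here. The median Log2FC in WT was negative under every alternative run, and without WT immortalized 5 it was -4.73. In Prkd3-/- cells and for the difference between genotypes, 0 members were called under each alternative run, the replicate block included. In WT the block also took the calls among macrophage markers from 8 to 0, among other leukocyte signaling genes from 11 to 0, and those of the paralog Vav3 and the endothelial marker Tek from 1 to 0 each. The median Log2FC in Prkd3-/- cells ran from -6.05 to -1.93 when each library was left out, and was -4.21 with the block. The median difference between genotypes ran from -1.57 without line 13a, a change of sign, to 2.17. Signs also changed for Syk in WT (-0.46 to 0.13, the latter without WT immortalized 5), Syk in Prkd3-/- cells (-0.12 to 0.22, with -0.12 without primary 13 and -0.00627 without line 13), Fyb there (-0.60 to 0.10, the latter without primary 14) and Plcg2 there (-0.073 to 0.94, with -0.073 without primary 13 and -0.000768 without line 13a). The cause of these changes was not tested. The mean log2 CPM of the members differed between WT states by -3.82, by -4.28 as a median over members and by -3.96 on library sizes alone. Values of members near 0 counts in lines 13, 14 and 15 are limited by depth.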
